A study of Homo sapiens with 2 samples.

Results

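The data concern 10 genes known for their strong induction by interferon in 2 human gastric cancer cell lines: IFI35, NMI, IFI44, IFI44L, EPSTI1, PLSCR1, LY6E, RTP4, CMPK2 and RSAD2. They were taken by symbol and selected on their differences in these arrays, which were already known, and on their known induction. They were read by 123 probesets (small groups of probes along a gene) of the 286871 probesets that the platform annotation gives exactly 1 symbol. They are 10 of 18923 such symbols and 10 of the 13130 measured genes, meaning genes that had 4 or more probesets and whose median level (mean of both arrays) reached 1.92, the middle value over every probeset. All 10 passed that filter. The lines were MKN45 and its highly metastatic derivative MKN45P, each profiled once on an exon array from the total RNA of 1 cell lysate. Both were cultured in RPMI 1640 with serum, and the labels name no interferon treatment for either. How MKN45P was derived, and whether it is a clone, is not given in the sources used here.

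Interferons are secreted proteins that bind surface receptors and, through the Janus kinases, activate STAT proteins. A complex that holds STAT2 and IRF9 then binds a promoter element, the interferon-stimulated response element, and switches on a broad set of genes, most of which act against viruses. In epithelial and tumour cells this programme can be on at a low level without added interferon. The 10 genes are outputs of that programme with different biochemical roles. They include a STAT partner (NMI), the protein it pairs with (IFI35) and cytoplasmic proteins of undefined activity (IFI44, IFI44L, EPSTI1). The others are membrane proteins (PLSCR1, LY6E), a receptor chaperone (RTP4) and nucleotide enzymes (CMPK2, RSAD2).

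The promoters are shown first because a response element is the feature through which interferon acts on such genes. The genes were chosen partly for their known induction, so a match is not independent of the choice. The RefSeq table of GRCh38.p14 gave promoters, 250 bases before to 50 bases after a start, for 9 of the 10 genes; LY6E had no entry. The core of the interferon-stimulated response element, GAAA followed after any 2 bases by GAAA, was searched on both strands. It lay in a promoter of 7 of these 9 genes and of 4.38% of all 27305 genes with an entry; counted by single promoters it lay in 1255 of 35116, or 3.57%. Capitals mark each match with up to 20 bases on either side, ending before the start.
NMI (chr2:151289802-151289851, minus strand): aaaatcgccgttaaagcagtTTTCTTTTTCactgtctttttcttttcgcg
IFI44 (chr1:78649751-78649788, plus strand): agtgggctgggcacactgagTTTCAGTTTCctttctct
IFI44L (chr1:78620264-78620404, plus strand): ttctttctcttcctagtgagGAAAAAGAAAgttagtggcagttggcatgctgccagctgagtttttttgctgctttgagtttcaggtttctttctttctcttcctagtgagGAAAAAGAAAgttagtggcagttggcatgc
EPSTI1 (chr13:42992262-42992311, minus strand): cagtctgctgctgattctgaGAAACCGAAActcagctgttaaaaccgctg
PLSCR1 (chr3:146544657-146544706, minus strand): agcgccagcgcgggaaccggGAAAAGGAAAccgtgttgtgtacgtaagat
RTP4 (chr3:187368323-187368384, plus strand): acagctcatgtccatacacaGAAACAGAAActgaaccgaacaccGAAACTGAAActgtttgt
RSAD2 (chr2:6877612-6877661, plus strand): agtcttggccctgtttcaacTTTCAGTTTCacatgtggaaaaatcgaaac

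The matches differed in number and place. RTP4 held 2 matches, beginning 42 and 18 bases before its start, and IFI44L held 2, beginning 164 and 73 bases before it. Only 91 of the 35116 promoters, 0.259%, held 2 or more. The IFI44L pair sits in a repeated stretch: 85 bases recur 91 bases further on, and 24 promoters, 0.0683%, had a repeat at least that long. In EPSTI1 the match began 50 bases before the start, and in NMI 163 bases before it. IFI44 and PLSCR1 each have 2 annotated starts close together that share 1 match. The RSAD2 match lay before only 1 of its 2 annotated starts. IFI35 and CMPK2 held no match, which says only that these letters are not in the searched windows. The second motif, TTCNNNGAA, the site type bound by STAT dimers and the same on both strands, lay in 4 of the 9 genes (IFI35, NMI, EPSTI1 and PLSCR1) and in 9.38% of all genes with an entry, or 7.66% of single promoters. In EPSTI1 the matches to both motifs overlap. A match is a description of the sequence and not evidence of binding.

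Of the 10 genes, 7 had a difference of 2-fold or more toward MKN45P and 3 did not. Among all measured genes, 4.58% passed 2-fold upward and 1.2% downward. Among those within the range of level of the 10 genes, 4.79% passed it upward. The median difference of the 10, MKN45P minus MKN45, was 1.78 in log2 units, beside 0.03 for all measured genes. Of the 10, 4 were at least 4-fold higher, where 0.762% of measured genes were. The genes were chosen with these differences known, so the counts describe the set and support nothing further. The MKN45 medians of IFI44 (1.65), IFI44L (1.68), RSAD2 (1.71) and EPSTI1 (1.915) were below the level filter of 1.924. These genes passed it only through MKN45P, so the counts also follow in part from the filter. With 1 array per line there was no replicate error and no test. Ranges below are interquartile ranges over the probesets of a gene, which share the same RNA and are not replicates. In a lysate, fewer expressing cells and less RNA per cell cannot be told apart.

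**Figure D1:**
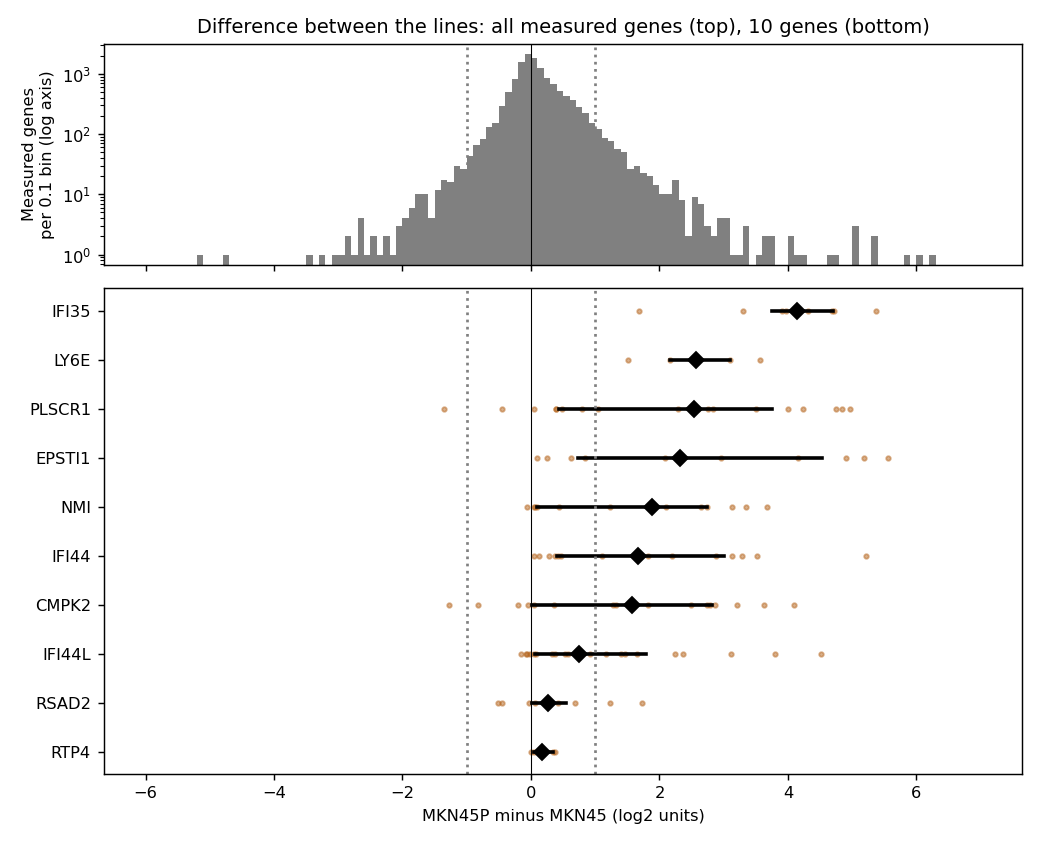
Difference between the lines in log2 units, MKN45P minus MKN45. The upper panel counts all 13130 measured genes per bin on a log axis. In the lower panel diamonds are gene medians, bars interquartile ranges over probesets and dots single probesets; dotted lines mark 2-fold. The gene medians run from 0.18 for RTP4 to 4.15 for IFI35, and 7 of 10 lie beyond 2-fold.

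At the level of probesets, 70 of 123 passed 2-fold upward and 2 downward. Over all probesets with 1 symbol the shares were 8.82% and 4.06%. A value of at least 2.77, the 75th percentile of level over all probesets, is called signal here. In MKN45, 37 of the 123 probesets had signal, and in MKN45P 78 had it. Of these, 42 had signal in MKN45P only, 36 in both lines and 1 in MKN45 only. The remaining 44 had it in neither line, near the low end of the scale, where a difference in RNA may not be readable. Among the 79 probesets with signal in either line, 70 were at least 2-fold higher, where 16.6% of all such probesets were. As 42 of the 79 had signal only in MKN45P, the line where they are high, that count follows in part from the choice and supports nothing.

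**Figure D2:**
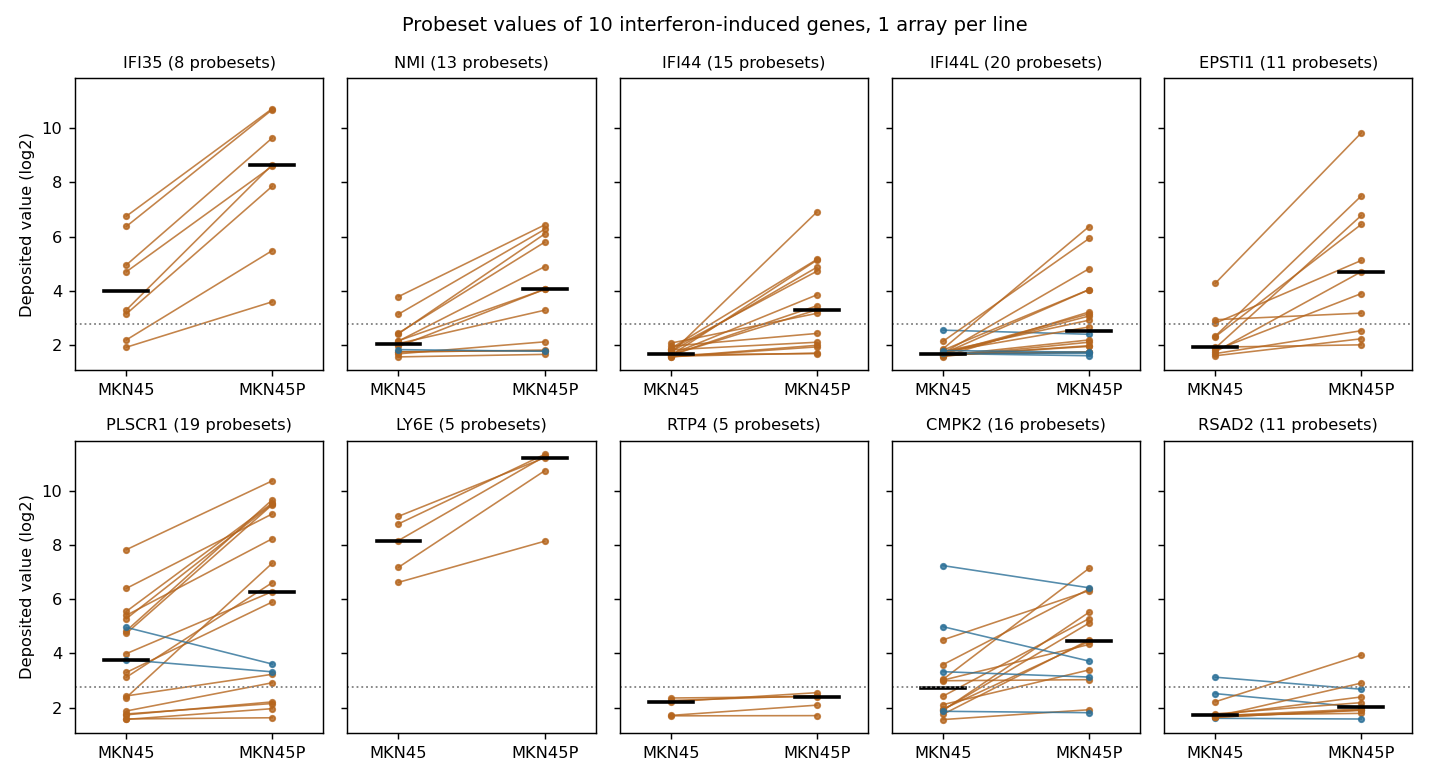
Deposited log2 value of every probeset in each line; a line joins the same probeset on both arrays, orange where MKN45P is higher and blue where it is lower. Black bars are medians and the dotted line is the signal level of 2.77. All 8 IFI35 and all 5 LY6E probesets are at least 2-fold higher in MKN45P, whereas all 5 RTP4 probesets stay below the signal level in both lines.

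NMI and its partner IFI35 were both higher in MKN45P. NMI, the N-myc and STAT interactor, binds STAT proteins, and IFI35 forms a complex with it. IFI35 had a median level of 3.99 in MKN45, and of 8.63 in MKN45P. Its difference was 4.15 (3.75 to 4.70 over 8 probesets), the largest of the 10 genes and the 12th highest of all measured genes. Every IFI35 probeset was at least 2-fold higher, from 1.68 to 5.37, and 6 of 8 had signal in both lines. Probeset 3722349, for example, read 6.37 in MKN45 and 10.69 in MKN45P, well inside the scale on both arrays. NMI had median levels of 2.05 and 4.04, and its difference was 1.89 (0.09 to 2.74 over 13 probesets). NMI was thus near the low end in the parental line. Its probesets split into 8 that were at least 2-fold higher and 5 that had signal in neither line. The 2 probesets with signal in both lines differed by a median of 2.89. Of the 13, only probeset 2580970 was lower in MKN45P, by a difference of -0.06.

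The adjacent genes IFI44 and IFI44L, related cytoplasmic proteins, lacked signal at every probeset in MKN45. The IFI44 medians were 1.65 in MKN45 and 3.29 in MKN45P, a difference of 1.67 (0.40 to 3.01 over 15 probesets). All 15 were higher and 9 were past 2-fold, led by probeset 2343523, which read 1.69 in MKN45 and 6.90 in MKN45P. IFI44L had medians of 1.68 and 2.53 and a difference of 0.75 (0.07 to 1.80 over 20 probesets), short of 2-fold. Of its 20 probesets, 9 were past 2-fold, with a highest difference of 4.52; these are also the 9 with signal in MKN45P. The other 11 had signal in neither line, and 4 of them were slightly lower in MKN45P. Over probesets with signal in either line the median difference was 2.88 for IFI44 and 2.24 for IFI44L. That choice of probesets uses the MKN45P values and so favours high differences. Because the parental values lie at the low end, neither size is well determined.

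EPSTI1, first described in breast cancer cells grown with stromal fibroblasts, had medians of 1.92 in MKN45 and 4.70 in MKN45P. Its difference was 2.31 (0.73 to 4.52 over 11 probesets), and all 11 were higher. Probeset 3511709 gave the largest difference of all 123, reading 4.27 in MKN45 and 9.83 in MKN45P. The spread within the gene was wide: 7 probesets were past 2-fold, and probeset 3511752, with signal in both lines, differed by 0.24.

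The membrane proteins had parental signal at all 5 probesets of LY6E and at 12 of 19 of PLSCR1. LY6E is a lipid-anchored surface protein that limits the entry of some viruses. Its 5 probesets read 6.62 to 9.06 in the parent and 8.14 to 11.35 in the derivative. Median levels were 8.17 and 11.22, and the difference was 2.56 (2.16 to 3.10 over 5 probesets), with all 5 past 2-fold. Each of the 5 was above the signal level on both arrays, and the smallest of their differences was 1.52. PLSCR1, a lipid-binding protein named for scrambling membrane phospholipids, had medians of 3.76 and 6.28. Its difference was 2.54 (0.44 to 3.75 over 19 probesets). The 12 probesets with signal in both lines differed by a median of 2.79. The largest difference, 4.96, was that of probeset 2699754, which was below the signal level in MKN45 (2.37).

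PLSCR1 and CMPK2 each held probesets that ran against the rest of the gene. In PLSCR1, probeset 2699768 read 4.96 in MKN45 and 3.61 in MKN45P, a difference of -1.36, and its neighbour in number, 2699769, differed by -0.45. They were the only 2 of 19 that were lower, and both had signal on both arrays. In CMPK2, which encodes a mitochondrial nucleotide kinase, the medians were 2.71 and 4.47 and the difference was 1.57 (0.02 to 2.81 over 16 probesets). Taken in the order of their numbers, the first 11 probesets had a median difference of 2.74 and 10 of them were past 2-fold. The last 5 had a median of -0.20, ran from -1.27 to 0.04, and 4 of them were lower in MKN45P. Among these last 5, probeset 2539145 read 7.24 in MKN45 and 6.42 in MKN45P. Both readings lay well above the signal level. By contrast probeset 2539128, among the first 11, read 3.04 and 7.14. Over the 8 CMPK2 probesets with signal in both lines the median difference was 0.68, short of 2-fold. The split between the first 11 and the last 5 was drawn after the values were seen. The annotation used here gives no exon for a probeset, and the part of probe behaviour, transcript structure or overlapping transcripts in it was not tested.

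**Figure D3:**
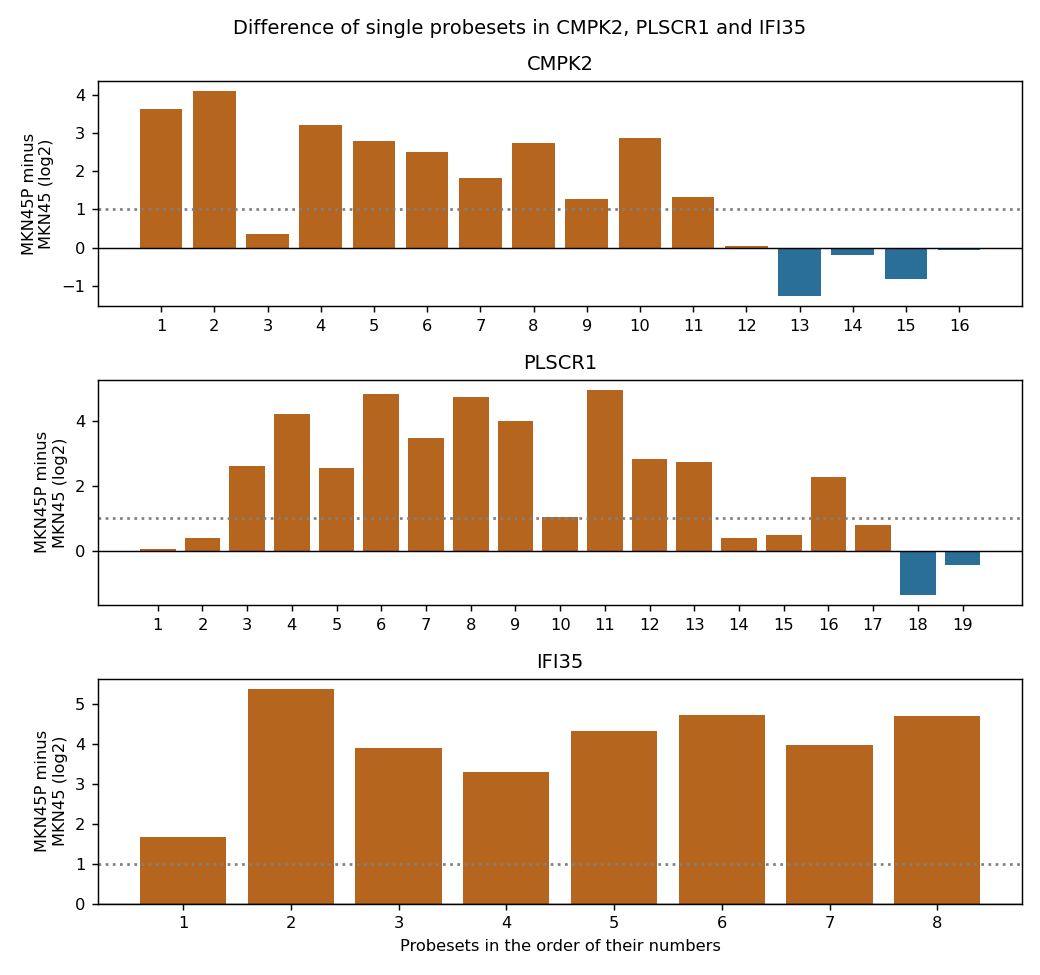
Difference of each probeset (log2 units, MKN45P minus MKN45) in CMPK2, PLSCR1 and IFI35, in the order of probeset numbers; the dotted line marks 2-fold higher. The last 5 of 16 CMPK2 probesets lie between -1.27 and 0.04 and the last 2 of 19 PLSCR1 probesets are below 0, whereas all 8 IFI35 probesets exceed 2-fold.

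RSAD2 and RTP4 went against the description of the set as strongly higher. RSAD2 encodes viperin, a radical enzyme that turns the nucleotide CTP into an antiviral chain terminator, and CMPK2 lies beside it on chromosome 2. Its medians were 1.71 in MKN45 and 2.01 in MKN45P, and its difference was 0.26 (0.02 to 0.55 over 11 probesets). The gene was near the low end in both lines, with signal in neither at 8 of 11 probesets. Probesets 2468361 and 2468368 were past 2-fold: 2468361 read 2.21 and 3.94, and 2468368 read 1.67 and 2.90. Probeset 2468357 read 3.12 in MKN45 and 2.68 in MKN45P, the opposite direction. RTP4, a chaperone that helps certain receptors reach the cell surface, had medians of 2.21 and 2.41 and a difference of 0.18 (0.05 to 0.34 over 5 probesets). All 5 RTP4 probesets were higher in MKN45P, the largest difference being 0.38, and none reached signal in either line. At such levels a change in RTP4 or RSAD2 RNA may not be readable. The promoter of RTP4, shown above, held 2 matches to the response element core, and that of IFI35, with the largest difference, held none.

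CMPK2 and RSAD2 have promoter windows that overlap at some of their annotated starts, and the genes differed in their values. They are transcribed in opposite directions, and the RefSeq promoter windows of the CMPK2 start at chr2:6865770-6866069 and the RSAD2 start at chr2:6865635-6865934 overlap by 165 bases. The RSAD2 window at chr2:6877527-6877826, which holds the response element match, and the CMPK2 window at chr2:6866586-6866885 lie outside this overlap. Which starts were in use was not tested. Over gene medians the differences were 1.57 for CMPK2 and 0.26 for RSAD2. Both genes had wide spreads, the interquartile ranges overlap, and the difference between them could not be tested.

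The neighbours of the 10 genes on the chromosome were read next. For each gene the 2 nearest measured genes on either side, by RefSeq order, were taken; some lie far from it, as unmeasured genes between were passed over. Leaving out members, these were 32 genes, of which 0 passed 2-fold upward and 0 downward. That count is near the background of 4.58%, so little can be read from it, and their median difference was 0.07 (from -0.44 to 0.91). VAT1, which follows IFI35, differed by 0.31, and RPL27, which precedes it, by 0.20. RNF144A, beside RSAD2, differed by 0.11. The highest neighbour was DNAJC15, beside EPSTI1 on chromosome 13, at 0.91, with all 8 probesets higher. The lowest was ID2, the second measured gene after RSAD2, at -0.44. The count of 0 upward depends on the summary. In MKN45 and MKN45P the median levels of DNAJC15 (5.68 and 7.77) were more than 2-fold apart. So were those of MMADHC (5.07 and 6.10), which lies before NMI.

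**Figure D4:**
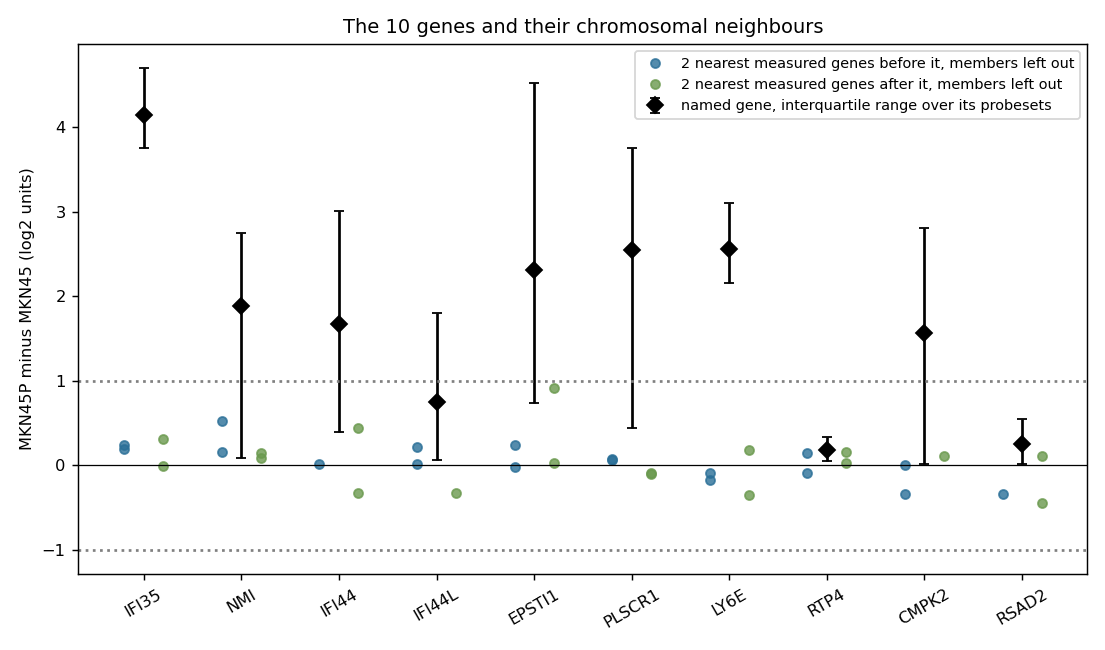
Gene difference in log2 units for each of the 10 genes (black diamonds with the interquartile range over probesets) and for the 2 nearest measured genes before and after it, members left out. Dotted lines mark 2-fold. By this difference the 32 distinct neighbours run from -0.44 to 0.91, and none is past 2-fold.

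Family relatives were read for PLSCR1, LY6E, RTP4 and CMPK2 only. Of 23 relatives listed, 19 were measured and 0 were past 2-fold in either direction, a count near the background of 4.58% upward and 1.2% downward, and the median was -0.07 (from -0.45 to 0.66). The other scramblase genes PLSCR2 (0.07), PLSCR3 (-0.15) and PLSCR4 (0.06) differed little beside PLSCR1. Among 10 genes of the LY6 family, LYPD1 was highest at 0.08 and LY6H lowest at -0.36. The RTP4 relatives RTP1 (-0.09), RTP2 (0.16) and RTP3 (0.04) were near the low end in both lines. CMPK1, the cytosolic counterpart of CMPK2, read 4.84 in the parent and 5.06 in the derivative, with a difference of -0.07. Of the other nucleotide kinases, AK1 differed by 0.66 and NME2 by -0.45; NME2 is nearly identical to NME1, so its value is uncertain.

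Across the rest of the interferon pathway, transcription factors and effectors were mostly higher. Receptors, kinases and inhibitors were mostly within 2-fold by the gene difference, the median over probesets. Of 76 other pathway genes 57 were measured; 34 of these passed 2-fold upward and 0 downward, with a median of 1.19. None of the 11 ligand genes was measured: 9 had probesets, and their medians lay between 1.69 and 2.12 in the parent and between 1.64 and 2.05 in the derivative, the low end of the scale. Of 6 receptor chains, IFNAR2 (1.12), a chain of the type I receptor, was 2-fold higher. IFNAR1, its partner, differed by 0.14, IL10RB by 0.67 and IFNGR2 by 0.32. The kinases JAK1 (0.63) and TYK2 (-0.02) were within 2-fold by this difference, and JAK2 was below the level filter. For JAK1 that depends on the summary. Its median levels of 6.17 and 7.95 were more than 2-fold apart, and 30 of its 35 probesets were higher in MKN45P. Of 5 measured transcription factors 4 were 2-fold higher: STAT2 (3.06), IRF9 (2.30), IRF1 (2.15) and IRF7 (1.03), while IRF3, which acts upstream of interferon genes, differed by 0.03. Among 5 inhibitors the phosphatase gene PTPN6 (1.70) was 2-fold higher, SOCS3 was at 0.47, SOCS1 at -0.26 and the ISG15 protease gene USP18 at -0.20. The median levels of SOCS1 (2.99 and 3.01) and USP18 (3.84 and 4.30) went the other way, so their sign depends on the summary. Of 39 other effectors 28 were 2-fold higher and all 39 had a positive difference, with a median of 1.45. Among all measured genes 54.9% were positive. Some effectors had MKN45 medians below the level filter of 1.92 and passed it only through MKN45P. These were IFIT1 (1.67 in MKN45), DDX60 (1.72), IFIT3 (1.78), IFIT2, HERC5, HERC6, DDX58, IFIH1, BST2 and TRIM22. Their positive differences, and the counts of 28, 34 and 39, thus follow in part from the filter. The 5 effectors with probesets that were not measured included IFITM3 (-0.03), SAMD9L (0.09), GBP1 (0.18) and SAMD9 (0.31). The other was IFITM2 (1.49). The largest differences among the effectors were those of IFIT3 (6.07), IFITM1 (5.31), OAS2 (5.02) and IFI27 (5.01). The smallest included GBP2 (0.21) and HERC5 (0.34), both near the low end in both lines as RTP4 and RSAD2 were, and ISG20 (0.24), whose medians of 2.97 and 3.14 were above the signal level in both. BST2 (0.20) and ISG15 (0.25) were also among the smallest, but their median levels were farther apart, 1.76 and 4.26 for BST2 and 3.18 and 4.80 for ISG15. Of their 9 and 4 probesets, 6 and 3 were higher in MKN45P. This list overlaps one whose values were known beforehand and is not independent support.

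**Figure D5:**
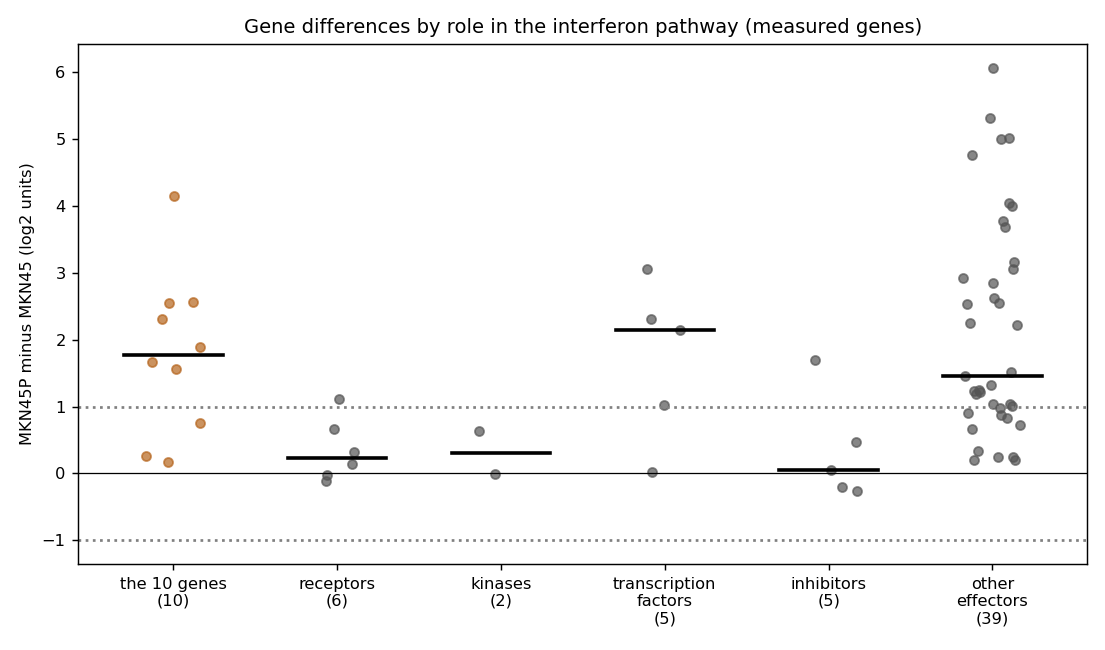
Difference of each measured gene (log2 units, MKN45P minus MKN45) by role in the interferon pathway, with the number of genes under each role and a bar at the median; sideways position has no meaning. The medians are 1.78 for the 10 genes, 2.15 for transcription factors and 1.45 for other effectors, against 0.23 for receptors and 0.06 for inhibitors.

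Outside the 10 genes, the response element core was set against the difference of every measured gene with a promoter entry. Of 358 genes with the core, 40 passed 2-fold upward, or 11.2%, and of 10174 without it 454 did, or 4.46%. Of those 40 genes 15 belong to the pathway list. With that list left out as well, the shares were 7.44% of 336 genes and 4.34% of 10150. These shares are a description over genes, which are not independent.

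Markers of other cell types were mostly near the low end in both lines. Of 16 immune markers 8 were measured and 0 were past 2-fold. Over the 14 with probesets, gene medians lay between 1.66 and 3.12 in the parent and between 1.65 and 2.50 in the derivative. PTPRC, which marks all white blood cells, read 1.66 and 1.65. Of 8 fibroblast markers FBLN1 (3.35 and 4.52, a difference of 1.10) was 2-fold higher, and its part in the results above was not tested; COL1A2 and COL3A1 each differed by -0.05. No endothelial marker of 5 measured was past 2-fold. Some markers of other cell types reached the signal level in both lines. Besides FBLN1 these were the fibroblast marker ELN (3.56 and 3.12) and the endothelial markers CLDN5 (3.30 and 2.85) and ENG (3.40 and 2.77). All 6 epithelial markers had median levels above the signal level in both lines, among them CDH1 (10.26 and 10.74) and EPCAM (6.39 and 7.43). The lowest of the epithelial markers, KRT8 (3.31 and 3.13), was close to ELN and CLDN5. Differences of the epithelial markers went both ways: CDH1 0.55, EPCAM 0.83 and CLDN4 0.19, against KRT8 -0.21, KRT18 -0.08 and KRT19 -0.76. KRT19 had only 2 probesets, and of the 5 measured 0 were past 2-fold.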

How the data were processed

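The series matrix's value table held 877986 probesets for 2 arrays, 1 per line. Its deposited values are on a log2 scale, read from the values, which run from 1.42 to 13.48. Per the submitters' processing notes Partek and hg18 were used; the steps for background, probe summary and scaling were not given in the sources used here, so the table was taken as deposited.

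Probesets with exactly 1 symbol in the platform annotation were used (286871; 3137 had several symbols and 587978 none). A gene's difference is the median over its probesets of MKN45P minus MKN45, with their interquartile range. RefSeq tables of GRCh38.p14 gave promoters, gene names and gene order; probeset positions in hg18 were not used. Motifs were searched on both strands. No test was possible, and the number of arrays limits the precision.

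All 10 genes are named, and of the other lists up to 4 genes of each role with the largest or opposite differences, plus genes singled out after their values were seen (such as BST2, GBP2, ISG15, HERC5 and the neighbours named). Members and lists were chosen with earlier results of these data known. A comparison of protein sequences was planned and not run. Calculations used Python 3.11.15, numpy 2.4.6, pandas 2.3.3, statsmodels 0.14.6 and matplotlib 3.10.9, and the gene step was tested on simulated data. Alternatives were 3 scalings, 2 other summaries, and other filters on probesets and genes.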

Additional observations from a re-analysis of the deposited data

How the results depend on the processing

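Under 8 alternatives the number of the 10 genes at least 2-fold higher was 5 to 8 (5 of the 7 genes with at least 10 probesets; 8 of the 8 left when only probesets with a mean level over both arrays of at least 2.77 were used, where 11.4% of 10645 genes passed), and their median difference was 1.67 to 2.96. RTP4 stayed between 0.18 and 0.28 and RSAD2 between 0.26 and 0.36 wherever they could be computed; neither has 4 probesets at that mean level. With that filter on probesets, IFI44 was at 3.29 and IFI44L at 3.12, each over 5 probesets that passed only through MKN45P, so these values and the 8 of 8 follow from the filter and show nothing on stability. IFI44L was at 1.21 with the mean of probesets and under 2-fold in the other settings. The pathway count was 28 to 41, over differing numbers of genes. It was 28 of 46 with at least 10 probesets, 39 of 53 with that filter on probesets and 41 of 57 with the mean of probesets. Among all genes the share past 2-fold ran from 3.55% with no level filter on genes to 11.4% with that filter on probesets. All measured genes at least 2-fold higher numbered 602, against 1263 with the difference of median levels and 1218 with that filter on probesets. No difference of the 10 genes reversed. No paired analysis was possible because each line has 1 array. Low signal limits IFI44, IFI44L, RTP4 and RSAD2.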
